A study of Rattus norvegicus with 8 samples.

Results

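U0126 blocks MEK1 and MEK2, the kinases that phosphorylate and activate ERK1 and ERK2, and the comparison described here is U0126 against its solvent DMSO in chondrocytes that received no cytokine. Its folds come from 4 of the 8 arrays of the study, 2 with DMSO and 2 with U0126, chosen by their labels, while the standard errors and p values come from a fit of all 8. Cartilage cells from the femoral condyles of 1-day-old Sprague Dawley rats were grown as a monolayer to confluence, kept without serum overnight, given DMSO or U0126 for 30 min and then bovine serum albumin as vehicle for 24 h. The other 4 arrays hold cells that received TNFα (30 ng/ml) in place of the albumin, after DMSO or after U0126. All 8 arrays are thus of serum-starved primary cells outside their matrix, and the labels do not say how many animals went into a culture. Each treatment was done once in each of 2 experiments, on 1 RAT230_2.0 array (Affymetrix) each time, and a fold is always the ratio of U0126 to the DMSO array of the same experiment. The values are linear intensities, brought to a common array median of 369.1, and dim values may lie within the array's background, since present calls were not part of the analysis.

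MEK and ERK form the last steps of the cascade from growth factor receptors through Ras and Raf, and active ERK switches on early genes such as Egr1 and Fos as well as the genes of its own brakes, the Dusp phosphatases and the Sprouty proteins. In cartilage the pathway is known for its part in the output of matrix metalloproteinases. The aryl hydrocarbon receptor (AhR) and NRF2 belong to other systems: AhR binds planar ring compounds and, with its partner Arnt, turns on Cyp1 enzymes and its own repressor Ahrr, while NRF2 is freed from Keap1 by electrophiles or oxidants and turns on glutathione and quinone-detoxifying enzymes. Both bind short DNA elements, for AhR a GCGTG core, for NRF2 the antioxidant response element with the core TGACNNNGC.

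The promoter stretches below are shown because the genes that moved most fall into these systems, and they let the elements be seen in their own sequence. Each is the 150 bases before the transcription start, 5′ to 3′ along the gene, from the RefSeq promoter table (GRCr8). Capitals show matches, on either strand, to the element named below for that gene, and matches to the other elements are left unmarked. The Mmp3 and Egr2 stretches, for example, hold TGACNNNGC unmarked. Capitals mark GCGTG, or CACGC on the other strand, in Ahrr and Cyp1b1, and TGACNNNGC, read here from the other strand, in Pir. They mark the serum response element (CArG box) in Egr1 and Egr2, and TGANTCA, the site of the Fos and Jun factors (AP-1), in Mmp13 and Mmp3.
Ahrr, chr1:30822069-30822218, plus strand: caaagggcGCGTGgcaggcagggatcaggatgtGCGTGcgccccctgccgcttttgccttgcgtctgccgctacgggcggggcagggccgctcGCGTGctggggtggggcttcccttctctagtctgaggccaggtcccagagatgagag
Cyp1b1, chr6:21094415-21094564, plus strand: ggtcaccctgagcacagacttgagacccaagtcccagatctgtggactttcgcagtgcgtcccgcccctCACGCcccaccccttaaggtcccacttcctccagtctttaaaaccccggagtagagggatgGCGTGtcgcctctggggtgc
Pir, chrX:33851050-33851199, minus strand: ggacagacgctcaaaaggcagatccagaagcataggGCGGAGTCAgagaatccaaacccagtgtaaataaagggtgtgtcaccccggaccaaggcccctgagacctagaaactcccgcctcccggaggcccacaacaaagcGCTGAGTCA
Egr1, chr18:26736928-26737077, plus strand: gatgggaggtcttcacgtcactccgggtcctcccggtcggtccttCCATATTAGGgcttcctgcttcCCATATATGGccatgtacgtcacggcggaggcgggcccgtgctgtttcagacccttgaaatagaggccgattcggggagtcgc
Egr2, chr20:21054442-21054591, minus strand: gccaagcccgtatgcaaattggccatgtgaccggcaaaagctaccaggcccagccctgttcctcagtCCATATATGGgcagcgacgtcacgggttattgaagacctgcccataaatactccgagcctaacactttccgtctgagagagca
Mmp13, chr8:12782679-12782828, plus strand: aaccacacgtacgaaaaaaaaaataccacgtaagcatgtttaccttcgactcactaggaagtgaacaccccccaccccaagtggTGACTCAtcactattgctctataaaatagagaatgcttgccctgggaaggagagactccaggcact
Mmp3, chr8:12925131-12925280, plus strand: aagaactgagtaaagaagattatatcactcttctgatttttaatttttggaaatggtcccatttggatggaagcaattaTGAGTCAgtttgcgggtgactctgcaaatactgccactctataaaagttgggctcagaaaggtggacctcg

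In these stretches GCGTG starts 142, 117 and 57 bases before the start of Ahrr and 81 and 20 bases before that of Cyp1b1. The CArG boxes lie 105 and 83 bases before Egr1 and 83 bases before Egr2, and the AP-1 letters 66 and 71 bases before Mmp13 and Mmp3. Over windows of 250 bases before the start, searched on both strands, GCGTG was present in 8 of the 10 promoters that could be matched among the 13 genes called below, against 25.9% of all 33469 promoters in the table. The 8 are Ahrr, Nqo1, Cyp1b1, Tiparp, Srxn1, Gclc, Ramp1 and Hspb8. TGACNNNGC was found in 1 of the 10, that of Pir, against 10.1% of all promoters, TGANTCA in 2 (6.34% of all) and the CArG box in 0 (1.5% of all). Among the 28 genes that were lower by the fold rule below, 22 had a promoter in the table, and of these 4 held GCGTG, 5 TGACNNNGC, 3 TGANTCA and 2 the CArG box, those 2 being Egr1 and Egr2. TGANTCA and TGACNNNGC can overlap, as they do in Pir. The shares of all promoters count every promoter in the table, not only those of genes on the array, and were not matched for base content. The genes called had 1 promoter each, so the shares are not like for like, and enrichment was not tested. A match is a description of the letters and not evidence of binding.

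With U0126, the clearest change was a rise of xenobiotic and antioxidant enzymes, with Nqo1, Ahrr, Cyp1a1, Aldh3a1, Cyp1b1, Tiparp, Pir, Srxn1 and Gclc between 1.72-fold and 3.55-fold above DMSO. The ERK-responsive genes Egr1, Etv5 and Dusp6 and the proteases Mmp13 and Mmp3 were lower in both experiments, at 0.335 to 0.610 of DMSO, but no lower gene passed the test. Of 31042 probe sets, 18 passed limma after Benjamini-Hochberg adjustment at 0.05, all 18 of them higher with U0126 (0.058% of the probe sets tested) and 0 lower (0% of those tested). At an unadjusted limma p under 0.05 the counts were 2209 higher and 1908 lower. The smallest adjusted p of a lower probe set was 0.0506, for Egr2. Fits with a trend in the prior variance or on 1 probe set per gene called 2 lower probe sets, Egr1 and Egr2, a robust prior or no centring called Egr2, and a fit on the 4 arrays alone called 20, as given below. In cultures measured in bulk, fewer cells of a type and less RNA per cell cannot be told apart.

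The 18 probe sets comprise 15 with 1 gene symbol, which stand for 13 genes, and 3 with none. By the second criterion, the rule of the study's methods, a probe set counts when it is at least 1.45-fold higher, or lower, in both experiments, and it carries no p. It took 56 probe sets that were higher (0.18%) and 34 that were lower (0.11%), and all 18 called probe sets are among them. The 56 include 44 with 1 symbol, from 38 genes, and the 34 include 30, from 28 genes. In experiment 1 alone 152 probe sets passed 1.45-fold in either direction and in experiment 2 alone 671, and the SD of the log2 folds over all probe sets was 0.144 and 0.211. No probe set was past 1.45-fold upwards in one experiment and downwards in the other. The standard error of the log2 fold had a median of 0.11 among the 56 higher probe sets and 0.21 among the 34 lower ones, and it reached 0.69 for Saa3.

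**Figure D1:**
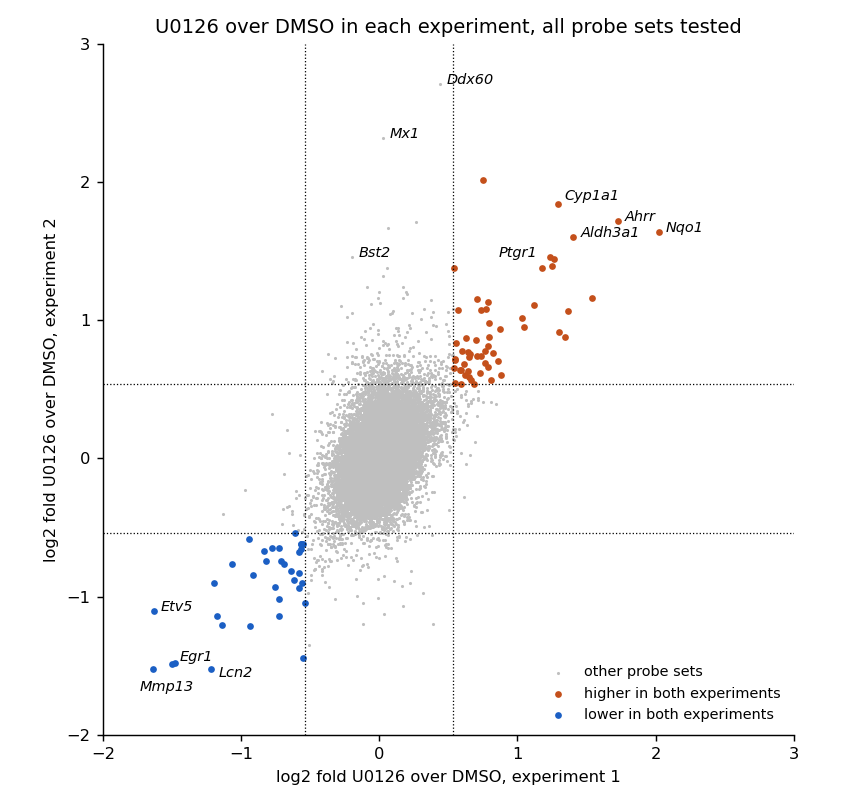
Log2 fold of U0126 over DMSO in experiment 1 (x axis) and experiment 2 (y axis), 1 point per probe set, with dotted lines at 1.45-fold. The 56 higher probe sets (orange) lie at the upper right, led by Nqo1, Ahrr, Cyp1a1 and Aldh3a1, the 34 lower ones (blue) at the lower left with Mmp13, Egr1 and Etv5, and the interferon-related Mx1 and Ddx60 are high in experiment 2 while below 1.45-fold in experiment 1.

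The enzymes and regulators known as AhR targets come first. Ahrr, the AhR repressor, was at 242 and 279 with DMSO and at 800.4 and 916 with U0126 in experiments 1 and 2. Its 3.31-fold and 3.29-fold rise (log2 fold 1.72 ± 0.09 SE, adjusted p = 0.00536, limma) varied little between the experiments. Cyp1a1, the cytochrome P450 that oxidises polycyclic hydrocarbons, was at 363 and 343 with DMSO and at 889 and 1225 with U0126. Both U0126 arrays lay far above both DMSO arrays, by 2.45-fold and 3.58-fold (1.56 ± 0.15, adjusted p = 0.0428, limma). Cyp1b1, its relative in connective tissue, went from 3440 and 6139 to 9981 and 13740. Here the DMSO arrays themselves differed, yet the 2.90-fold and 2.24-fold rise left both U0126 arrays above them (1.35 ± 0.13, adjusted p = 0.0428, limma).

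Tiparp, which ADP-ribosylates AhR and limits it, rose from 1717 and 1910 to 3520 and 3865, by 2.05-fold and 2.02-fold (adjusted p = 0.00882, limma). A second Tiparp probe set rose by 2.38-fold and 2.63-fold (adjusted p = 0.00536). Aldh3a1, an aldehyde dehydrogenase of the same battery, was at 370 and 388 with DMSO and at 979 and 1177 with U0126, 2.65-fold and 3.03-fold higher (1.50 ± 0.09, adjusted p = 0.00536). The groups did not overlap for either gene. Genes past the fold rule, as all called ones are, were picked on these same arrays. That their groups lie apart, here and below, is thus a description and adds no support to the calls. The share of all probe sets whose groups lie apart was not counted. Groups that lie apart in genes outside the fold rule, named below, are likewise a description only. Of the 13 genes on the AhR list, which was chosen with earlier results of these data known, 10 were measured. The 6 that passed, where 0.058% of all probe sets did, are those 5 and Nqo1. The median log2 fold over the 10 was 1.19, where that of all 14217 genes was 0.01. The other 4 did not pass. On the log2 scale they were the receptor Ahr itself (-0.16 and -0.05 in experiments 1 and 2), its partner Arnt (0.12 and -0.03), Cyp1a2 (-0.06 and -0.21) and Nfe2l2, the gene of NRF2 (0.11 and 0.36).

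Among the NRF2 targets the largest rise was that of Nqo1, the quinone reductase, which AhR also regulates. It was at 4006 and 5009 with DMSO and at 16260 and 15570 with U0126, 4.06-fold and 3.11-fold higher (1.83 ± 0.11, adjusted p = 0.00536, limma). Pir, a nuclear iron-binding protein, was at 363 and 404 with DMSO and 823 and 1049 with U0126, a rise of 2.27-fold and 2.60-fold (adjusted p = 0.00536). Srxn1, which restores oxidised peroxiredoxins, went from 859 and 721 to 1777 and 1397, or 2.07-fold and 1.94-fold (adjusted p = 0.0103). Gclc, the catalytic subunit of the first enzyme of glutathione synthesis, rose by 1.81-fold and 1.63-fold, from 754 and 873 to 1364 and 1426 (adjusted p = 0.0369). In all 4 genes the lower U0126 array lay above the higher DMSO array. Second probe sets of Srxn1 and Gclc were also at least 1.45-fold higher in both experiments without passing the test, at adjusted p = 0.0535 and 0.136.

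Further genes of this kind were past the fold rule without passing limma. Gsta1, a glutathione transferase, was at 3997 and 5860 with DMSO and 10140 and 10780 with U0126 (adjusted p = 0.0535). Ptgr1, which reduces reactive alkenals and leukotrienes, was at 526 and 605 against 1267 and 1642 (adjusted p = 0.146). Hmox1, heme oxygenase, was at 3250 and 3146 against 5969 and 6034 (adjusted p = 0.175, limma). In each of them both U0126 arrays were above both DMSO arrays, by 1.84-fold to 2.71-fold.

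Of the 33 genes on the NRF2 list, 29 were measured, 4 passed and 28 were higher in both experiments, where 34.8% of all genes were. The remaining member is Slc7a11, the cystine transporter, at -0.02 and 0.67 on the log2 scale. After quantile normalization the count was 26, against 26.9% of all genes. At an unadjusted limma p under 0.05, 18 of the 29 were higher, where 7.53% of all genes were, and the median log2 fold was 0.40 (0.33 in experiment 1 and 0.40 in experiment 2). Smaller members included Txnrd1, thioredoxin reductase, at 0.44 and 0.49, Gclm, the regulatory subunit beside Gclc, at 0.29 and 0.51, and Keap1, the NRF2 inhibitor, at 0.09 and 0.13.

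**Figure D2:**
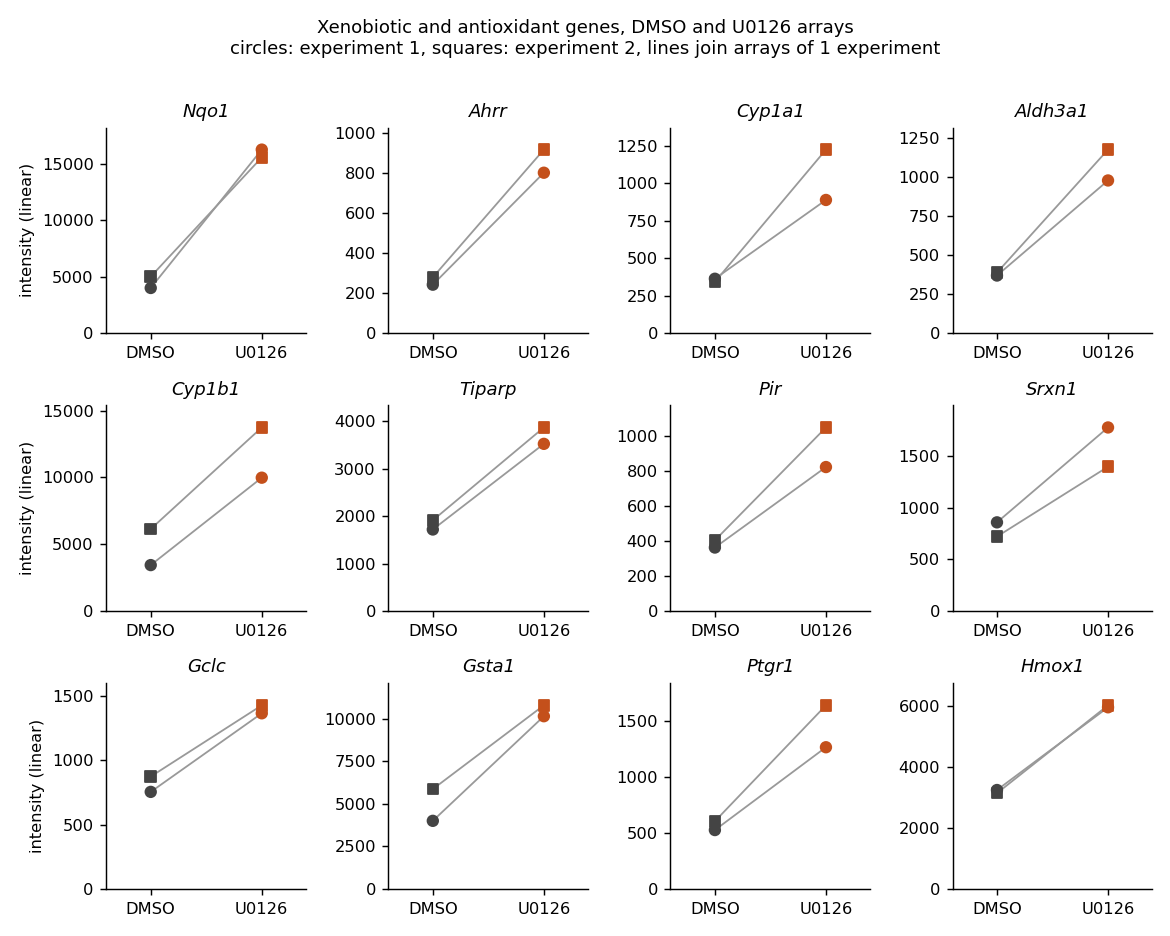
Linear intensity of 12 genes in the 2 DMSO arrays (grey) and the 2 U0126 arrays (orange), circles for experiment 1 and squares for experiment 2, each axis starting at 0. All 12 had passed the fold rule on these same arrays. In every panel both U0126 points lie above both DMSO points, from Nqo1 at 16260 and 15570 against 4006 and 5009 to Gclc at 1364 and 1426 against 754 and 873.

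Xenobiotic genes outside these lists moved less evenly. Of 20 measured, 0 passed and the median log2 fold was 0.09. In both experiments 8 were higher and 7 lower, where 34.8% and 30.0% of all genes were. Glutathione transferases were on the higher side, with Gstt2 at 0.48 and 0.33, Gstt1 at 0.38 and 0.39 and Gsta4 at 0.25 and 0.41, and the P450 gene Cyp4b1 was at 0.49 and 1.06. Cyp3a23-3a1 (-0.25 and -0.14), Cyp2s1 (-0.14 and -0.23) and the efflux pump Abcg2 (-0.02 and -0.07) were on the lower side.

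Genes of other roles made up the rest of the calls. Ramp1, the partner of the calcitonin receptor-like receptor, went from 461 and 682 to 1003 and 1470 (2.18-fold and 2.16-fold, adjusted p = 0.0175, limma). Sema3b, a secreted semaphorin, rose from 287 and 265 to 495 and 580.1 (adjusted p = 0.0428), and Uchl1, a ubiquitin hydrolase of neurons, from 1136 and 874 to 1886 and 1343 (adjusted p = 0.0428). Hspb8, a small heat shock protein, was raised on both of its probe sets, 1.77-fold and 1.70-fold on one and 1.51-fold and 1.56-fold on the other (adjusted p = 0.0428 for each). For Uchl1, Ramp1 and Sema3b the U0126 arrays were all above the DMSO arrays.

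Higher by the fold rule without passing the test were Grem1, a secreted BMP antagonist, at 1891 and 1342 with DMSO and 3285 and 2474 with U0126 (adjusted p = 0.0535), Ddit4l, an inhibitor of mTOR signalling, at 981 and 1933 against 2423 and 3638 (adjusted p = 0.0535), and Nkd1, an inhibitor of Wnt signalling, 1.46-fold to 1.83-fold higher on all 3 of its probe sets. The heme transporter Slc48a1 was at 1.67-fold and 1.68-fold, aldehyde oxidase Aox1 at 1.61-fold and 1.45-fold and the stress gene Gadd45g at 1.63-fold and 1.67-fold. The DMSO arrays of the 2 experiments differed for several of these genes, as for Ddit4l, whose lower U0126 array (2423) was still above both. For Rcan2, at 265 and 761 with DMSO and 451 and 1309 with U0126, and for Ifit2, at 167 and 539 against 273 and 1198, the groups overlapped and only the folds within experiments (1.70 and 1.72, 1.63 and 2.22) put them past the rule.

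Egr1, a zinc finger factor made at once when ERK is activated, had the lowest mean log2 fold of the ERK output list. It was at 3568 and 4642 with DMSO and at 1263 and 1659 with U0126, 0.354 and 0.357 of DMSO in experiments 1 and 2. Its log2 fold of -1.49 ± 0.16 had an adjusted p of 0.0535 (limma), just past the threshold. Egr2, its relative, was at 237 and 321 against 125.8 and 179 (-0.88 ± 0.09, adjusted p = 0.0506, limma). A second, dimmer Egr2 probe set was at 141 and 149 against 119 and 117. Both U0126 arrays lay below both DMSO arrays on each of these probe sets.

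Etv5, an ETS factor downstream of growth factor signals, was at 1275 and 2696 with DMSO and 412 and 1255 with U0126 (0.323 and 0.465 of DMSO, adjusted p = 0.146, limma). The U0126 arrays were the lower ones, though only narrowly across the experiments. A second Etv5 probe set gave 258 and 288 against 252 and 246, so the size differs between the probe sets. Dusp6, the phosphatase that removes the activating phosphates of ERK, was lower on all 3 of its probe sets, at 699.5 and 1028 against 408 and 657 on the brightest (adjusted p = 0.146). Fos, the AP-1 subunit, depended on the probe set. One gave 446 and 459 with DMSO and 213 and 270.1 with U0126 (0.477 and 0.588 of DMSO, adjusted p = 0.216), the brighter one over all arrays 361 and 407 against 335 and 314.

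Across the ERK output list, 21 of 23 genes were measured and 0 passed limma. Lower in both experiments were 15, where 30.0% of all genes were, and after quantile normalization 17, where 35.4% of all genes were. At an unadjusted limma p under 0.05, 11 were lower and 0 higher, where 5.93% of all genes were lower. The median log2 fold was -0.23 (-0.27 and -0.20 in experiments 1 and 2). Besides those named, Spry1 and Spry4, which brake receptor signals, were at -0.46 and -0.75 and at -0.22 and -0.36, and Nab2, a co-repressor of Egr1, at -0.22 and -0.40. Several members often used as ERK readouts lay near 0, with Ccnd1 (cyclin D1) at 0.00 and -0.22, Myc at -0.28 and 0.02, Dusp4 at -0.11 and -0.06, Fosl1 at -0.01 and -0.12 and Ier3 at 0.02 and 0.01.

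Of the 17 genes on the AP-1 and early response list, 0 passed, and the median log2 fold was -0.10. In both experiments 11 were lower and 0 higher, where 30.0% and 34.8% of all genes were. Jun was at -0.04 and 0.10, Jund at 0.43 and -0.05 and Klf6 at -0.25 and -0.15. The kinases and adaptors of the pathway itself moved little: 27 of 34 listed components were measured, 0 passed, 16 were higher and 8 lower in both experiments, and the median was 0.04. After quantile normalization 10 were higher and 12 lower, where 26.9% and 35.4% of all genes were, with a median of -0.01. Map2k1 and Map2k2, the genes of MEK1 and MEK2, were at -0.25 and 0.09 and at 0.08 and 0.08. Egfr, the EGF receptor, was the lowest of the 27, at 1716 and 3498 with DMSO and 1353 and 2519 with U0126 (-0.34 and -0.47, adjusted p = 0.216, limma), which was lower within each experiment while the groups overlapped. Growth factor ligands had 5 of 19 higher and 7 of 19 lower in both, with a median of -0.00.

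Mmp13, the collagenase that cleaves type II collagen, had the lowest mean log2 fold of all genes taken by the fold rule. It was at 1176 and 1911 with DMSO and at 378 and 666 with U0126, 0.322 and 0.348 of DMSO. Its standard error in the fit of 8 arrays was 0.57, and the adjusted p was 0.33 (limma). Mmp3, stromelysin, was at 1088 and 2498 against 390 and 894, 0.358 of DMSO in both experiments (SE 0.66, adjusted p = 0.391, limma). For each gene both U0126 arrays were below both DMSO arrays. These standard errors draw on the spread of all 8 arrays, the TNFα ones included. A fit on the 4 DMSO and U0126 arrays alone, with 1 residual degree of freedom, called both genes (adjusted p = 0.00352 for Mmp3, limma). With 1 array left out the fitted log2 fold of Mmp13 ran from -2.30 without U0126 replicate 2 to -0.86 without U0126 replicate 1. That of Mmp3 ran from -2.29 without DMSO replicate 1 to -0.67 without DMSO replicate 2. In each of these fits 1 array lacks its partner and is compared through the experiment term, which the TNFα arrays also enter. The ranges are thus not those of the folds within experiments.

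The protease list did not move as a block. Of 25 measured genes 15 were lower and 3 higher in both experiments, where 30.0% and 34.8% of all genes were. The median log2 fold was -0.10. Adamts5, an aggrecanase, was at 3223 and 3279 with DMSO and 2086 and 2347 with U0126 (adjusted p = 0.36), and Adamts9 at 1352 and 2082 against 1052 and 1387 (adjusted p = 0.207). The aggrecanase Adamts4 was at -0.09 and -0.12, Mmp2 at 0.22 and -0.10 and Mmp14 at 0.19 and 0.00. Plau, urokinase, was on the higher side at 0.53 and 0.36 (adjusted p = 0.246, limma). No member of the list passed.

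Further genes were lower by the fold rule. Lcn2, an iron-siderophore carrier, was at 3129 and 4703 with DMSO and 1348 and 1635 with U0126 (0.431 and 0.348 of DMSO, adjusted p = 0.369, limma). Chi3l1, a chitinase-like protein of stressed cartilage, was at 4389 and 6762 against 1990 and 2934, or 0.454 and 0.434. Both genes had no overlap between the groups, and the fitted log2 fold of Lcn2 ran from -2.15 to -0.59 as DMSO replicate 1 or 2 was left out. Cxcl1, a neutrophil chemokine, was at 587 and 671 against 354 and 332, and Slpi, an inhibitor of neutrophil proteases, at 1626 and 1108 against 1119 and 537. Slpi was lower within both experiments, at 0.688 and 0.4845 of DMSO, the first of them at the edge of the rule. The sign of its fitted log2 fold depended on the arrays kept, at -1.655 without DMSO replicate 1 and 0.0703 without DMSO replicate 2. Each of these fits leaves 1 U0126 array without its DMSO partner. Vcam1, an adhesion molecule, was at 585 and 2183 against 347 and 1144, and Saa3, serum amyloid, at 975 and 3166 against 510.0 and 1364, so that for these 2 the experiments differed more than the treatments.

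Of 29 chemokines and cytokines, 17 were lower and 2 higher in both experiments, where 30.0% and 34.8% of all genes were. None passed, and the median log2 fold was -0.14. Ccl20 was at -0.42 and -0.81, Ccl2 at -0.35 and -0.74, Cx3cl1 at -0.44 and -0.51 and Cxcl12 at -0.46 and -0.43. Il6 was at -0.00 and 0.02 and Tnf at 0.02 and -0.08. The gene that went the other way past the fold rule was Cxcl13, at 303 and 1427 with DMSO and 524 and 2257 with U0126. Prostaglandin and nitric oxide genes were mixed, 3 of 15 higher and 5 of 15 lower in both, and Ptgs2 (cyclooxygenase-2) was at -0.23 and 0.00.

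**Figure D3:**
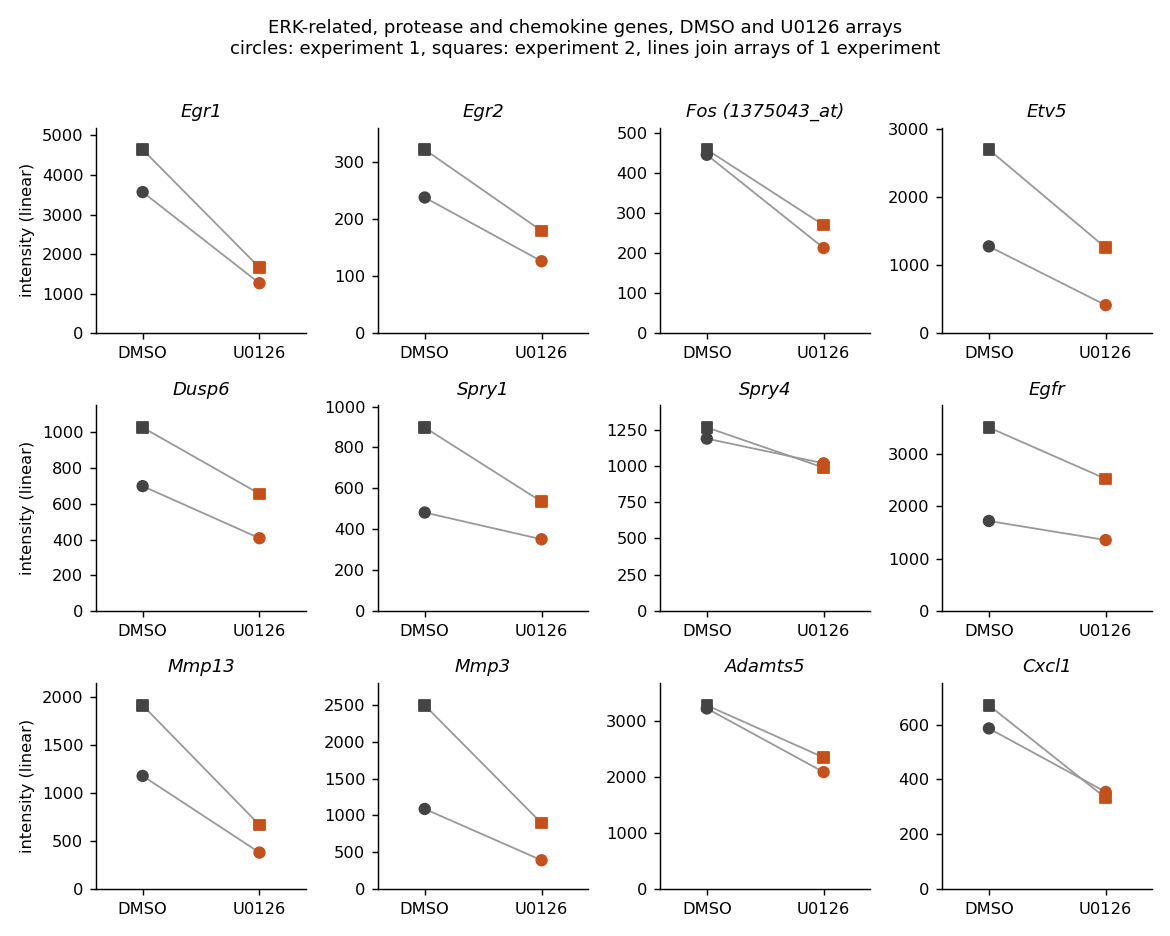
Linear intensity of 12 genes in the DMSO (grey) and U0126 (orange) arrays, circles for experiment 1 and squares for experiment 2, each axis starting at 0. Every line slopes down from DMSO to U0126, which adds no support, since the 12 genes were picked as lower on these same arrays. Fos is shown on the probe set with the larger fall, not on its brighter one. Egr1 (3568 and 4642 against 1263 and 1659) and Mmp13 (1176 and 1911 against 378 and 666) show groups that do not overlap, whereas the Egfr groups do.

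On the mitosis list, each measured gene was lower by less than 1.45-fold in at least 1 experiment. All 19 measured genes of the mitosis list were lower in both experiments, where 30.0% of all genes were. The count was the same after quantile normalization, where 35.4% of all genes were. None passed limma after adjustment, 12 had an unadjusted p under 0.05, and the median log2 fold was -0.46 (-0.31 and -0.57). Cdk1, the mitotic kinase, was at 2421 and 2213 with DMSO and 1854 and 1397 with U0126, Ccnb2 (cyclin B2) at 1430 and 1312 against 1113 and 792, and Kif20a, a kinesin of cytokinesis, at 1959 and 1727 against 1455 and 1057. In each of the 3 the U0126 arrays were the lower ones, a description only, since the share of all probe sets lying apart was not counted. Mki67, the proliferation marker, was at -0.30 and -0.68.

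Of 18 S phase genes 15 were lower and 3 higher in both experiments, where 30.0% and 34.8% of all genes were. Their median was -0.26. Ccna2 (cyclin A2) was at 1494 and 1094 with DMSO and 928 and 643 with U0126, and Uhrf1, which keeps DNA methylation through replication, at 1009 and 879 against 680.1 and 573, and both were past the fold rule. Pcna was at -0.23 and -0.19 and the replication helicase subunit Mcm2 at -0.10 and -0.09. The 3 higher genes were Tyms, E2f1 and Pola1, between 0.02 and 0.17.

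No cartilage matrix gene passed the test. Of 20 measured, 13 were higher and 1 lower in both experiments, where 34.8% and 30.0% of all genes were. The median log2 fold was 0.10. Col2a1, the main collagen of cartilage, was at 32080 and 26740 with DMSO and 31290 and 27620 with U0126 on its brightest probe set, while 2 dimmer ones went in opposite directions (0.803 and 0.495 of DMSO on one, 1.37-fold and 1.09-fold on the other). Acan, aggrecan, was at 21560 and 11280 against 23400 and 13500, a difference between the treatments smaller than that between the experiments. Cnmd (chondromodulin) was at 0.15 and 0.29, Sox6 at 0.12 and 0.58 and Comp at 0.14 and 0.04. Of the hypertrophic markers, Col10a1 was at 171 to 176 with DMSO and 168 to 169 with U0126, and Alpl, alkaline phosphatase, at 0.36 and 0.27.

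Among BMP and TGFβ genes, the secreted antagonists named here were on the higher side, and Id1, Id3 and Smad7 on the lower. These members were picked with their values known and do not describe the list. Grem1 is given above, and the antagonists Chrd and Nog were at 0.25 and 0.36 and at 0.27 and 0.32. Id1, a direct BMP target, was at 2813 and 3223 with DMSO and 1931 and 2438 with U0126, Id3 at -0.40 and -0.37 and Smad7 at -0.39 and -0.21, and the ligand Gdf10 at 1195 and 2215 against 620.2 and 1478. In the whole list 5 of 20 were higher and 9 lower in both experiments, where 34.8% and 30.0% of all genes were. The median log2 fold was -0.07, and 0 passed. Glycolysis and hypoxia genes had 9 of 17 lower and 1 higher in both and a median of -0.17, with Pgk1 at -0.30 and -0.32, Ldha at -0.27 and -0.20 and Pfkl at -0.35 and -0.39.

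The medians of the interferon and ATF4 lists differed between the experiments, a difference that was not tested. The interferon response list, with 19 measured genes, had a median log2 fold of 0.03 in experiment 1 and 0.59 in experiment 2. Mx1, an antiviral GTPase, was at 41.98 and 42.74 with DMSO and U0126 in experiment 1 and at 49.9 and 248.5 in experiment 2. Isg15, a ubiquitin-like protein, was at 388 and 321 in experiment 1 and at 509 and 1095 in experiment 2, and Mx2 and Usp18 followed the same course. No interferon gene passed the test, and 10 of 19 were higher in both experiments, where 34.8% of all genes were. At an unadjusted limma p under 0.05, 7 were higher, where 7.53% of all genes were. On the TNFα arrays Mx1 again differed between the experiments, at 0.14 and 1.99. The list of endoplasmic reticulum stress and ATF4 genes, 20 measured, had a median of -0.04 in experiment 1 and 0.41 in experiment 2. Among them Trib3 and Sesn2, which ATF4 induces, were at -0.17 and 0.73 and at 0.02 and 0.67, and the chaperone Hspa5 was at -0.04 and -0.07. Of 17 cholesterol synthesis genes 6 were higher and 1 lower in both experiments, near the 34.8% of all genes for the higher ones, and after quantile normalization 6 and 4, with medians of 0.03 and -0.02.

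**Figure D4:**
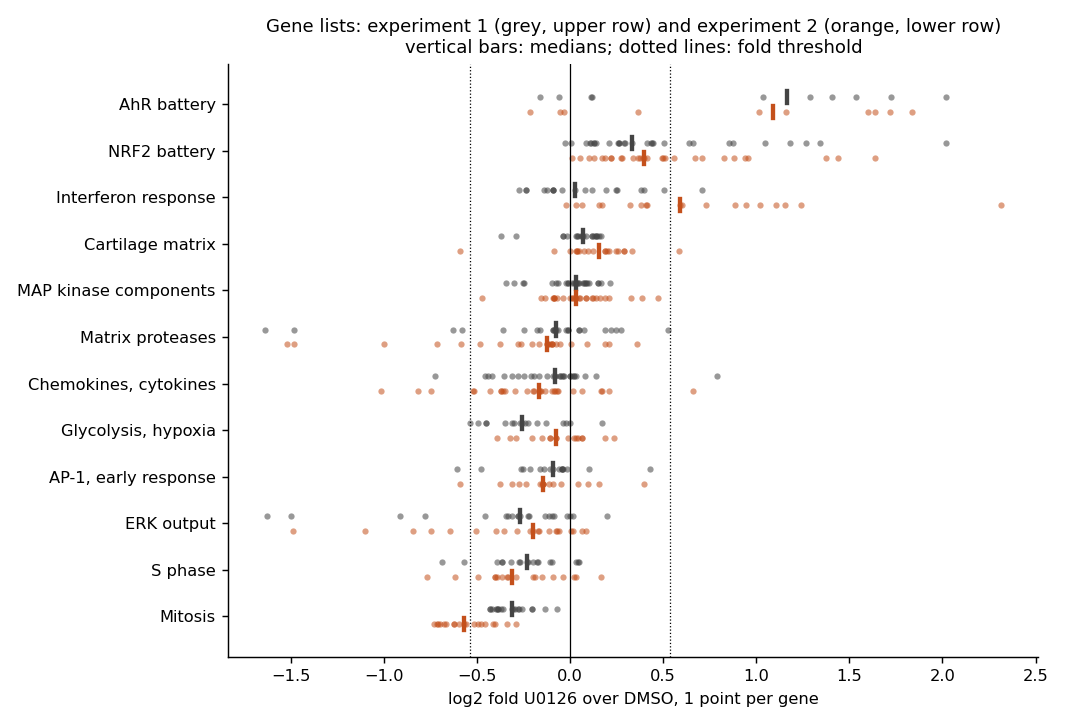
Log2 fold of U0126 over DMSO for 12 gene lists, 1 point per gene, experiment 1 in grey and experiment 2 in orange, with the median of each as a vertical bar and dotted lines at 1.45-fold. AhR and NRF2 genes lie to the right and mitosis genes to the left in both experiments, and the interferon medians (0.03 and 0.59) separate the experiments.

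Over all probe sets the median fold moved with the level, with probe sets split into 10 equal classes by intensity, from -0.088 in class 3 to 0.074 in class 8 in experiment 2 and from -0.029 to 0.028 in experiment 1 (log2), and after quantile normalization all class medians lay between -0.033 and 0.001. Markers of other cells were read in the same arrays. Summed intensities with DMSO and with U0126 were 1780 to 2263 and 1756 to 2206 for 8 macrophage genes, 627 to 888 and 629 to 979 for 5 endothelial genes, and 34810 to 42580 and 34040 to 41820 for 13 contractile genes. The sum of 3 erythroid genes was 807 to 853 against 741.5 to 768, which do not overlap, and its part in the results was not tested. Adipocyte markers separated the experiments rather than the treatments, with sums of 2421 and 2208 in experiment 1 and 16980 and 18480 in experiment 2, mostly Fabp4. Chondrocyte matrix genes summed to 204700 to 284400 against 224000 to 297100. The array values start at 15.2, so no marker reads 0.

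The arrays with TNFα give a second reading of U0126, on cultures that the folds of U0126 over DMSO do not use. They are from the same 2 experiments, and the limma tests of both readings share 1 fit and its spread. U0126 with TNFα was set against TNFα. Of the 56 probe sets that were higher with U0126 alone, 48 were again higher in both experiments, where 33.4% of all probe sets were, and 29 again passed 1.45-fold in both. Of the 34 lower ones 33 were again lower, where 28.2% of all were, and 25 again passed 1.45-fold. The exception is Uhrf1, at 0.05 and -0.81. The median log2 fold of the 56 was 0.78 without and 0.67 with TNFα, and that of the 34 was -0.77 without and -0.96 with TNFα.

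limma called 78 probe sets in the TNFα arrays, 40 higher (0.129%) and 38 lower (0.122%), and 13 of the 18 called without TNFα were among the higher ones. Nqo1 was at 4162 and 3898 with TNFα and at 15560 and 14880 with U0126 and TNFα, and Ahrr at 253.5 and 236 against 775.5 and 909 (adjusted p = 0.00851 for each). Their folds were 3.74 and 3.82 for Nqo1 and 3.06 and 3.86 for Ahrr. Those not called were Aldh3a1, Cyp1b1, Cyp1a1, Sema3b and 1 unnamed probe set. Among lower genes, Egr2 (adjusted p = 0.0398) and Hsd11b1, the enzyme that activates cortisone-type steroids (adjusted p = 0.0471), passed here, and Egr1 was at 3923 and 3618 against 1763 and 1491 (adjusted p = 0.0554).

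Whether U0126 acted differently with TNFα was tested as the difference of the log2 folds. No probe set passed (0 called, smallest adjusted p = 0.5, limma), and 2836 had an unadjusted p under 0.05, 15 of the 90 taken by the fold rule among them. Of the 90, the smallest p was that of Aldh3a1, which TNFα-treated cultures held at 1156 and 1159 already and U0126 with TNFα at 1574 and 1475. Its fold was 1.36 and 1.27 there against 2.65 and 3.03 without TNFα (difference -1.11 ± 0.13, unadjusted p = 6.42e-05, adjusted p = 0.5). Cyp1a1 had smaller folds too, at 1.37-fold and 1.80-fold (difference -0.91 ± 0.22, adjusted p = 0.5). Mmp13 was at 17890 and 5810 with TNFα and at 2286 and 1186 with U0126 and TNFα, 0.128 and 0.204 of TNFα, and the difference from the effect without TNFα was -1.05 ± 0.80 (adjusted p = 0.693).

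**Figure D5:**
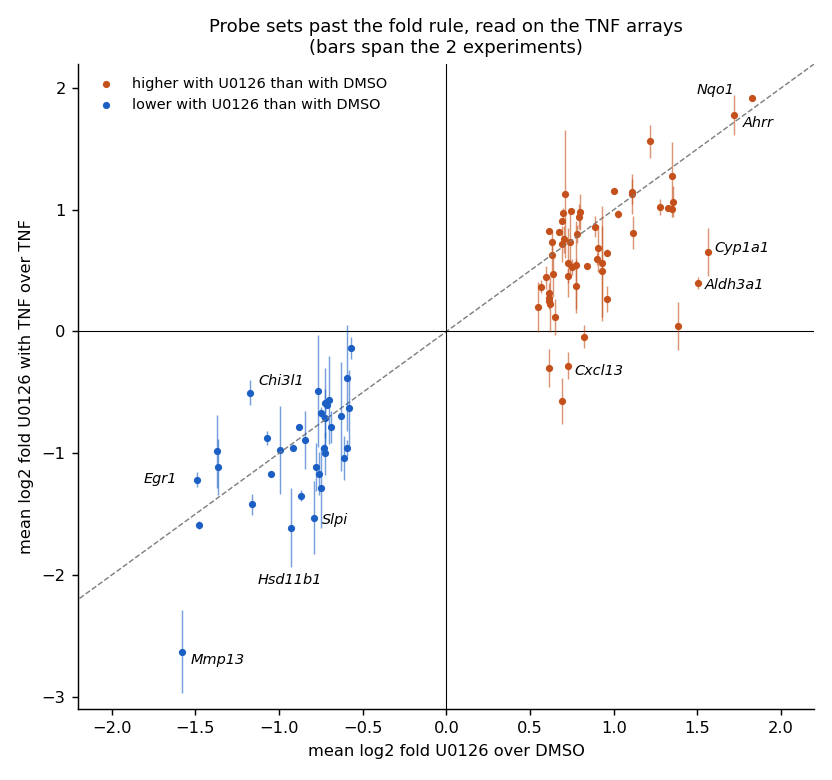
Mean log2 fold of U0126 over DMSO (x axis) and of U0126 with TNFα over TNFα (y axis) for the 90 probe sets of the fold rule, with bars that span the 2 experiments and a dashed line of equal folds. Nqo1 and Ahrr lie close to the line, Aldh3a1 and Cyp1a1 below it, Mmp13 farthest down, and Cxcl13 is above 0 without and below 0 with TNFα.

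The precision of these calls is limited by 2 arrays per treatment. It also depends on the spread of all arrays in the main fit, those with TNFα included. The absence of lower calls is thus a result of that fit, and the share of the TNFα arrays in it was not tested. Fitted on the 4 DMSO and U0126 arrays alone, with 1 residual degree of freedom, limma called 56 probe sets, 36 higher and 20 lower, all of them inside the fold rule and 17 of them among the 18. The lower genes there were Anxa3, Egr1, Vcam1, Mmp3, Mme, Serping1, Fos, Ccna2, Etv5, Lcn2, Dusp6, Egr2, Cxcl1, Mmp13, Chi3l1 and Saa3, with 4 unnamed probe sets. Leaving out either U0126 array from the fit of all arrays left 0 calls, and leaving out either DMSO array left 1.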

How the data were processed

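RNA of 8 rat chondrocyte cultures was hybridized to single-colour arrays. The values deposited by the authors are linear intensities of 31099 probe sets, for which their processing notes name RMA without a version. The methods describe division by each chip's median and by DMSO, but the values show neither. Here log2 values were centred on each array's median, 57 controls were left out, and 31042 probe sets were tested. Probe sets were named from the 2016 array annotation (20826 with 1 symbol, 436 with several, 9780 with none), updated through Entrez numbers (20758 found in RefSeq), and the probe set that was brightest on average stands for its gene unless another is named. limma 3.58.1 (R 4.3.3) was fitted to all 8 arrays with terms for treatment and experiment (residual degrees of freedom 3) and tested on simulated data. There it called 38 of 50 probe sets raised 1.45-fold and 46 of 50 lowered to 0.69. It called 50 of 50 at 2-fold and 50 of 50 at 0.5. Of 30842 left unchanged it called 20, which are false calls. Tables and figures used Python 3.11.15 with numpy 2.4.6, pandas 2.3.3 and matplotlib 3.10.9.

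Replicate numbers in the labels were used as the experiment because the methods normalise to the DMSO control within each experiment, and arrays with the same number deviated together from their treatment means (correlations 0.728 to 0.829). The labels call the replicates biological, without saying whether their cells came from separate litters. The p values measure the spread left among these cultures after the treatment and experiment terms. They do not measure the difference between the experiments, which the experiment term takes out, or that between animals. Arrays have no depth in counts, and their number limits the precision.

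The comparison, the 24 gene lists and the tests were chosen with earlier results of these data known. A rule set which genes could be named: those passing limma, the 15 highest and 15 lowest of the fold rule, any member of the ERK output, early response, AhR and NRF2 lists, and of the other lists up to 4 with the smallest p or highest level. The text names part of them. Other genes were named after their values were seen. Alternatives were no centring, quantile normalization, a filter on the lowest 40% of probe sets, trend or robust prior variance, no block, 4 arrays only, 1 probe set per gene, each array left out, and fold thresholds of 1.3 and 2.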

Additional observations from a re-analysis of the deposited data

Results flagged for a closer look

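Of the 56 probe sets that the fold rule took as higher, 3 were lower in both experiments with U0126 on top of TNFα. Among these were probe sets of 2 genes, and for neither gene did the difference pass the test. Opposite moves outside the fold rule were not counted. Abca1, a cholesterol exporter, was 1.58-fold and 1.48-fold of DMSO and 0.730 and 0.907 of TNFα on a probe set other than its brightest, a difference of the log2 folds of -0.91 (limma, unadjusted p = 0.0755, adjusted p = 0.572). Cxcl13, a chemokine for B cells, was 1.73-fold and 1.58-fold of DMSO and 0.891 and 0.762 of TNFα, a difference of -1.01 (limma, unadjusted p = 0.086, adjusted p = 0.582).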

How the results depend on the processing

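For U0126 against DMSO, limma called 18 probe sets. It called 0 without the replicate block, 56 on the 4 arrays alone and 11 after quantile normalization, and 0 to 12 when 1 array was left out. That count was 0 when a U0126 array was missing (either of them), 1 for a DMSO array, 5 for an array of both agents and 12 for a TNFα array. The other settings gave 16 to 27. For U0126 with TNFα against TNFα it called 78, 0 without the block, and 0 to 416 with 1 array left out, 416 without TNFα replicate 2, 18 without TNFα replicate 1, 32 when a DMSO or a U0126 array was missing and 0 when an array of both agents was. The difference of both effects had 0 calls, and 0 to 2 with 1 array left out, 2 of them without TNFα replicate 2. The fold rule took 90 probe sets, 277 at 1.3-fold, 19 at 2-fold, 200 by the mean of both experiments, 59 with 1 probe set per gene, and 152 to 671 in 1 experiment alone. Over 1205 refits of 77 named probe sets (14 to 16 alternatives each, since a filter or 1 probe set per gene leaves some out), the sole reversal was that of Slpi, whose log2 fold ran from -1.655 without DMSO replicate 1 to 0.0703 without DMSO replicate 2 (adjusted p = 0.981). Leaving out 1 array moved the log2 fold of 21 of the 77 by more than 1.5 times, none of them a called probe set. Without a DMSO or a U0126 array, the array that lost its partner is compared across experiments through the experiment term. The TNFα arrays also enter that term. The cause of these shifts was otherwise not tested, beyond the smaller number of arrays or probe sets where some were left out.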
